A study of Mus musculus with 2 samples.

Results

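The cells described here are mammary luminal cells of C3-TAg mice that carried abundant casein mRNA and few mitotic transcripts. They were selected on measured casein, mitotic and receptor UMIs, among C3-TAg barcodes with at least 500 genes, at least 1000 unique molecular identifiers (UMIs) and at most 10% of UMIs from mitochondrially encoded genes. A limit of fewer than 5 UMIs of Areg, Pgr, Esr1 and Cited1 per 10000 UMIs was set to leave out hormone-sensing cells. Cells below it are called receptor-low cells. A member drew at least 0.5% of its UMIs from the 4 caseins Csn1s1, Csn1s2a, Csn2 and Csn3. It also held fewer than 10 UMIs per 10000 of the 8 mitotic genes Mki67, Top2a, Cdk1, Ccnb1, Birc5, Ube2c, Cenpf and Nusap1. Of 9575 C3-TAg barcodes, 8458 were kept, 6121 were receptor-low and 2060 were members. Members made up 33.7% of the receptor-low cells (95% Clopper-Pearson interval, 32.5 to 34.9%). Under the same rule, 3809 of 4390 receptor-low WT cells qualified, or 86.8% (85.7 to 87.8%). The receptor limit set aside 2337 C3-TAg and 3016 WT cells, of which 1197 and 2570 reached it with Areg left out. The others were set aside only with Areg counted and need not be hormone-sensing, and their part in these shares was not tested.

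Both libraries came from FVB/NJ mice aged 3.5 months, and the luminal cells were isolated by flow cytometry. The WT group carried a Sox9-GFP reporter alone. The C3-TAg group carried that reporter and, in addition, the C3-TAg transgene. This transgene places simian virus T antigens under the promoter of a rat gene for a prostatic steroid-binding protein, active in mammary epithelium. About 10000 cells per group were submitted for a droplet-based 3′ single-cell kit, and the labels do not say how many animals each library pools. With 1 library per group, no difference between genotypes has a replicate check, no test was possible, and all intervals cover counting error only.

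Caseins are the main milk proteins. Their genes lie in one cluster and are switched on in alveolar luminal cells through the prolactin receptor, JAK2 and STAT5 together with the transcription factor ELF5. Casein mRNA is also found at lower levels in luminal progenitors of virgin glands. The T antigens bind the retinoblastoma and p53 proteins, and loss of the retinoblastoma brake releases E2F factors, which transcribe the genes of DNA replication.

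The promoters of 2 caseins that chose the cells and of the 2 genes with the highest ratios to WT among those of the S phase list with at least 20 CPM are shown, since the results turn on these gene groups. The sequences are from RefSeq on GRCm38.p6, 250 bases before to 50 after the gene start. Capitals in Csn2 (chr5:87699376-87699675, minus strand) and Csn1s1 (chr5:87665958-87666257, plus strand) mark TTCNNNGAA, the core of a STAT site. Capitals in Pclaf (chr9:65890073-65890372, plus strand) and Mcm3 (chr1:20820263-20820562, minus strand) mark TTTGGCGC or TTTCCCGC, forms of the E2F site, on either strand.
Csn2: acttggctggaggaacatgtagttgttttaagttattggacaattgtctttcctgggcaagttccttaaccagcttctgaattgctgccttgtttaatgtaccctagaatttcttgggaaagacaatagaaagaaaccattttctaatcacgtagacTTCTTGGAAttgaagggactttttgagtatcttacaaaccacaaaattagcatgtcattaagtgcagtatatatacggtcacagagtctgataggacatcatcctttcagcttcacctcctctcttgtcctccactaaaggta
Csn1s1: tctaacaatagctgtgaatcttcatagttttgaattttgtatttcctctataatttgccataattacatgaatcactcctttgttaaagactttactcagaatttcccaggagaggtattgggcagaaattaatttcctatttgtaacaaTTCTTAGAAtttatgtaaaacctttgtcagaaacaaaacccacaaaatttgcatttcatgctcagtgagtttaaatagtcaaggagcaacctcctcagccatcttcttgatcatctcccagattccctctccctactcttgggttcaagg
Pclaf: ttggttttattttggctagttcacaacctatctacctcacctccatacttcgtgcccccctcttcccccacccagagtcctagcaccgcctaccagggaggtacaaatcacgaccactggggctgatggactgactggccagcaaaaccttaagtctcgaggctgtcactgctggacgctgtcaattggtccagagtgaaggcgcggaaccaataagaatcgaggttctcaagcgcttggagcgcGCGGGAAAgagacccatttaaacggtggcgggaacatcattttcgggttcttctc
Mcm3: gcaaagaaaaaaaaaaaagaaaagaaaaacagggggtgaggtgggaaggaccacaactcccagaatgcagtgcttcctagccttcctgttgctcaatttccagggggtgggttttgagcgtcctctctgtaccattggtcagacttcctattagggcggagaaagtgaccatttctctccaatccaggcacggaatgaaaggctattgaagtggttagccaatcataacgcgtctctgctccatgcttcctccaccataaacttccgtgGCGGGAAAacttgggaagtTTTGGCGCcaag
TTCNNNGAA, searched on both strands, was present in the same window of 3 of the 3 rule caseins with an entry (Csn1s1, Csn1s2a and Csn2) and of 9.55% of 27025 genes. Of the 14 genes of the milk protein list with an entry, 4 had it, these caseins and Glycam1. Wap and Thrsp had no match. One of the E2F forms was present in 10 of 25 S phase and E2F genes with an entry (40%) and in 1.8% of all genes. These matches describe the letters in the window and not binding.

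The libraries differed modestly in depth. Members had a median of 9862 UMIs and 2819 genes per cell, against 11859 UMIs and 2835 genes in WT, and their summed counts came to 23575200 and 48204431 UMIs. Casein-low C3-TAg cells were shallower, at a median of 7260 UMIs. The libraries shared 20 barcodes, of which 3 were members, and removing them gave 476 genes higher and 255 lower than in WT, against 479 and 256 with them. Scrublet called 4.56% of members doublets, against 1.6% of the WT cells. Near the limits, 83 members had 0.5 to 0.6% casein UMIs while 94 cells with 0.4 to 0.5% fell outside. Likewise 155 members had 8 to 10 mitotic UMIs per 10000 and 101 cells with 10 to 12 fell outside.

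**Figure D1:**
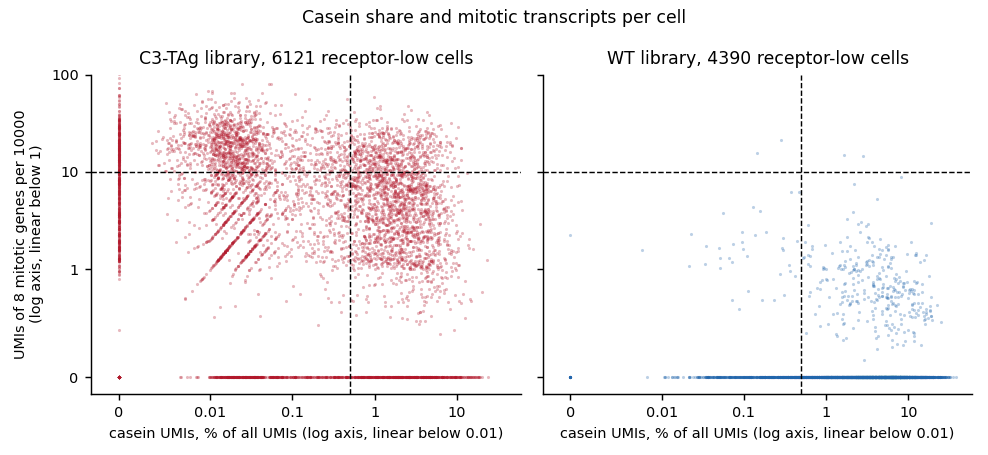
Casein share of UMIs (x axis, percent, log axis that is linear near 0) against UMIs of the 8 mitotic genes per 10000 (y axis) for each receptor-low cell of the WT and C3-TAg libraries. Dashed lines mark the 0.5% and 10 per 10000 limits. The 3809 WT cells below and to the right of the lines lie almost entirely near 0 mitotic UMIs, whereas the 2060 C3-TAg members spread up to the limit.

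The values that chose the cells are given as a description. Casein UMIs made up a median of 2.16% of a member's UMIs (range 0.504 to 23.9%) and 4.14% of a WT cell's UMIs (0.503 to 37.7%). Csn2, beta-casein, stood at 13369 UMIs per 1000000 (CPM) in members and 24071 CPM in WT. Csn1s1 stood at 6742 and 12564 CPM, Csn1s2a at 7444 and 14480 CPM, and Csn3, kappa-casein, at 4339 and 11268 CPM. Csn3 was thus 2.6-fold lower in members, and the other caseins 1.8 to 1.95-fold lower. Mitotic UMIs were detected in most members but in few WT cells: 25.7% of members and 91.7% of WT cells had none of the 8 genes. Outside the receptor-low cells, C3-TAg cells with Pgr, Esr1 or Cited1 UMIs, taken as the reference for free RNA, had a median casein share of 0.0142% (n = 1197), and the WT counterparts had 0.0407% (n = 2570).

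Levels of the label's 5 markers and of markers of other cell types are given as a description. Csn2 is one of the rule's genes, and the members were chosen with earlier results of these data known. The levels of the 5 markers are therefore no check of the label. Csn2 lies at chr5:87692624-87699630 (minus strand, GRCm38), Elf5 at chr2:103411688-103450989 (plus), Krt14 at chr11:100203162-100207548 (minus), Thrsp at chr7:97412938-97417730 (minus) and Il24 at chr1:130882074-130887454 (minus). Elf5, the transcription factor of the alveolar lineage, stood at 253.5 CPM in members, 90.3 CPM in casein-low C3-TAg cells with few mitotic transcripts, and 310.0 CPM in WT cells. Thrsp, an activator of fatty acid synthesis, stood at 38.0, 4.89 and 9.07 CPM in the same order. Il24, a cytokine of the interleukin 10 family, stood at 38.8, 7.57 and 8.48 CPM. Krt14, a keratin of basal cells, stood at 431.2 CPM in members and 434.2 CPM in casein-low cells, so that it separated members from WT cells (26.2 CPM) but not from other C3-TAg receptor-low cells.

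Of the other basal markers, Krt17 was also higher in members than in WT cells, with values given below. Krt5, Trp63 and Acta2 were low. The 9 basal or myoepithelial markers summed to 468.0 CPM in members, 762.2 CPM in casein-low C3-TAg cells and 42.2 CPM in WT cells, and Krt14 supplied most of the members' sum. Krt5, the usual partner of Krt14, was at 0.0848 CPM, Trp63 at 1.27 CPM and Acta2 at 1.48 CPM in members. The 6 luminal keratin and surface markers summed to 10472 CPM in members and 15104 CPM in WT. Immune markers summed to 1.4 CPM in members and 1.91 CPM in WT, and Cd3e was at 0 in members. Endothelial markers summed to 2.76 and 3.65 CPM (Emcn at 0 in members), and fibroblast markers to 2.29 and 7.88 CPM (Col3a1 and Lum at 0 in members). The 8 hormone-sensing markers summed to 136.0 and 145.6 CPM, and 4 of them were used by the rule.

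The design sets luminal cells with the transgene beside luminal cells without it, and members were first compared with WT cells of the same rule. Among genes with at least 50 CPM in either group, 7 of the 12 highest ratios were of genes on the S phase list. At the lower level filter given below, 22 of 7108 genes were on that list. Its share among genes with at least 50 CPM was not counted. Pclaf, the PCNA-associated factor, stood at 143.1 CPM in members and 0.685 CPM in WT (209-fold, interval 149 to 304). Clspn, the checkpoint mediator claspin, stood at 60.1 and 0.456 CPM (132-fold, 86.6 to 211). Mcm3, a subunit of the replicative helicase, stood at 111.9 and 1.43 CPM (78.2-fold, 61.6 to 101). Rrm2, the small subunit of ribonucleotide reductase, stood at 58.8 and 0.934 CPM. The WT level of these 4 genes was below 2 CPM, so that they met the limit of 50 CPM only through their C3-TAg level. Mcm5, Mcm2, Cdca8, Smc2, Hells, Cdc20, Dtl and Mcm6 completed the 12, at ratios of 62 down to 20.6. These too met the limit through their C3-TAg level, so the ranking is given as a description.

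A gene is called higher or lower here at a ratio of at least 2 in CPM, with no test, among genes with a mean of at least 10 CPM over both groups. Of 7108 genes, 479 (6.74%) were called higher in members and 256 (3.6%) lower, and the median log2 ratio was 0.26. Scaling by the trimmed mean of M values (TMM) lowered all log2 ratios by 0.31 and turned that split into 293 higher and 440 lower, so list directions are given with both scalings. The list of S phase and E2F genes has 29 members, of which 22 passed the level filter. All 22 that passed were called higher under both scalings, with a median log2 ratio of 4.13, and a gene with almost no WT level could pass only through its C3-TAg level. Over all 29 genes, the summed level was 1899 CPM in members and 196.1 CPM in WT. Pcna, the sliding clamp of DNA polymerase, was among the least different at 102.9 and 38.6 CPM (2.67-fold, 2.51 to 2.83).

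Over all 20 mitotic genes outside the rule, the summed level was 529.7 CPM in members and 74.9 CPM in WT. The 8 mitotic genes of the rule differed below its limit too, with a median of 2 UMIs per 10000 in members and 0 in WT. Of the 20 genes, 10 passed the filter, some only through their C3-TAg level, and 9 were called higher under both scalings. Cdc20, the activator of the anaphase-promoting complex, stood at 58.0 and 2.36 CPM. Ccna2, cyclin A, stood at 21.8 CPM in members and had 1 UMI in all WT cells. Cks2, a subunit of cyclin-dependent kinases, was the exception at 79.9 and 44.1 CPM (1.81-fold). Among genes of the Rb and CDK network, Rb1 itself stood at 45.4 CPM in members and 114.6 CPM in WT (2.52-fold lower, 2.36 to 2.69). Cdk4, the G1 kinase, stood at 151.9 and 63.9 CPM, and Cdkn1b, the inhibitor p27, at 52.9 and 22.1 CPM. In that list 3 of 8 genes that passed were called higher and 1 lower, and under TMM none was called higher and 3 lower. Cdkn2a, which encodes p16 and ARF, stood at 5.01 CPM in members, with a UMI in 48 of 2060, and had no UMI in 3809 WT cells. With WT set to a floor of 3 counts the ratio was 80.4-fold, which leaves out the counting error of the members' level. Its mean was under 10 CPM, so it was not among the genes called.

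The members were next divided by their mitotic UMIs. The 530 members with no UMI of the 8 mitotic genes had a summed S phase level of 742.7 CPM, above the 196.1 CPM of all WT cells. The 638 members with up to 2.5 mitotic UMIs per 10000 had 1428 CPM, the 402 members with 2.5 to 5 had 2348 CPM, and the 490 members with more had 2950 CPM. The 567 casein-positive C3-TAg cells over the limit had 3084 CPM, close to the highest members. Mcm3 stood at 42.4, 93.3, 147.5 and 158.8 CPM over the 4 classes of members, and at 135.7 CPM over the limit. Pclaf instead stood at 6.77, 32.6, 170.9 and 341.9 CPM, and at 505.3 CPM over the limit. Median depth was 8951, 9889, 9967 and 11101 UMIs in those 4 classes, so detection of a mitotic UMI moved with depth, and its part in the result was not tested. With both libraries limited to cells with no mitotic UMI, 212 genes were called higher and 250 lower in members.

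**Figure D2:**
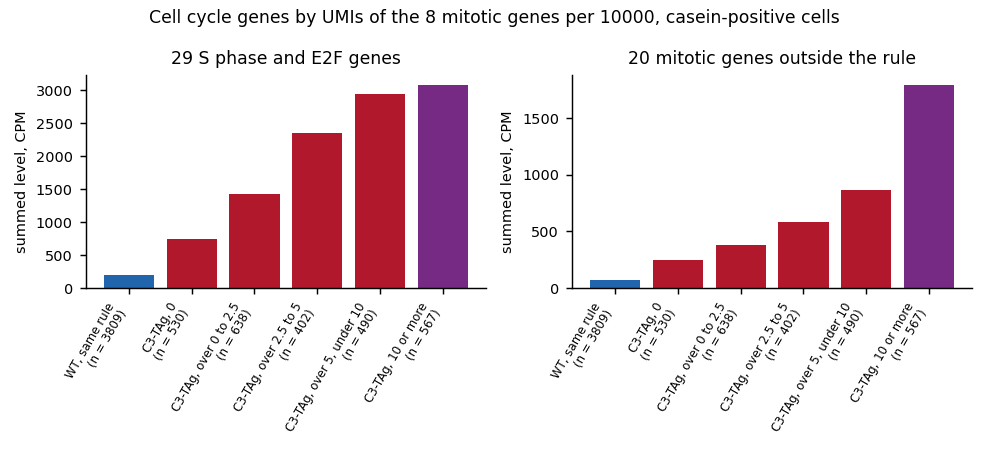
Summed levels in CPM (y axis) of 29 S phase and E2F genes and of 20 mitotic genes outside the rule, for WT cells of the rule, 4 classes of C3-TAg members by mitotic UMIs per 10000, and C3-TAg casein-positive cells over the limit (x axis, n cells in brackets). The S phase sum is 196.1 CPM in WT and 742.7 CPM already in members with no mitotic UMI.

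Per cell, S phase transcripts were more frequent in members than in WT cells, at shares that moved with depth. With every cell thinned to 2000 UMIs, 29.4% of members (n = 2060) and 0.105% of WT cells (n = 3801, 8 shallower cells left out) held at least 5 UMIs of the S phase list. Without thinning these shares were 83.4 and 12.6%. In thinned C3-TAg cells with Pgr, Esr1 or Cited1 UMIs the share was 2.51%, and in casein-low cells 54.7%.

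Krt14 was the most different of the 5 markers between the libraries, 16.5-fold higher in members (15.5 to 17.5). At 2000 UMIs per cell, 43.7% of members held a Krt14 UMI, against 3.42% of WT cells. In C3-TAg cells with Pgr, Esr1 or Cited1 UMIs, the reference for free RNA, the share was 3.85%. Without thinning the shares were 76.9, 12.6 and 11.4%, at median depths of 9862, 11859 and 8070 UMIs. Csn2 and Krt14 UMIs were found together in 43.4% of thinned members and 3.29% of thinned WT cells. Of 20 basal keratins and contractile genes, 5 passed the filter and 3 were called higher under both scalings. These were Krt14, Krt17 (31.6 and 10.4 CPM), a keratin of stressed and basal epithelium, and Lgals7 (43.5 and 16.1 CPM), a galectin of stratified epithelium.

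Thrsp was 4.2-fold higher in members than in WT (3.74 to 4.72) and Il24 4.57-fold higher (4.06 to 5.15). Elf5 was 1.22-fold lower (1.19 to 1.26), within the 2-fold limit. Most of the genes of the pathway of Thrsp lay within 2-fold. Of 25 genes of fatty acid and triglyceride synthesis, 15 passed, 1 was called higher (Thrsp) and 1 lower. TMM made it 1 and 2. The lower one was Scd1, the stearoyl-CoA desaturase, at 177.4 CPM in members and 666.0 CPM in WT. Fasn, fatty acid synthase, stood at 47.1 and 34.0 CPM, within 2-fold, and the list median changed sign between scalings (0.23 and −0.08).

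**Figure D3:**
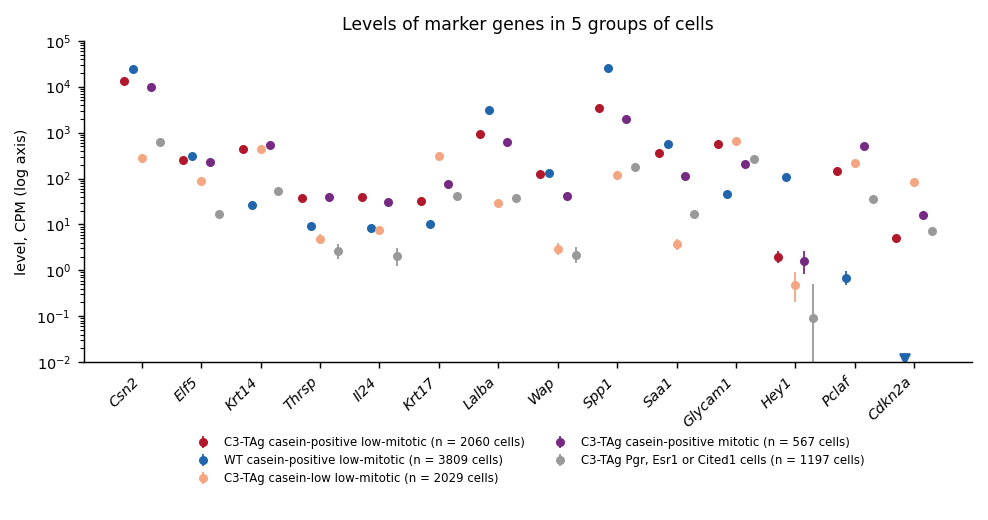
Levels in CPM (y axis, log axis) of the 5 markers and of 9 other genes in 5 groups of cells (members, WT cells of the same rule, casein-low C3-TAg cells, casein-positive mitotic C3-TAg cells, and C3-TAg cells with Pgr, Esr1 or Cited1 UMIs), with exact Poisson 95% intervals that cover counting error only. A triangle at the bottom marks a gene with no UMI in WT. Krt14 (431.2 and 26.2 CPM) and Pclaf (143.1 and 0.685 CPM) are far higher in members, and Hey1 (1.99 and 107.7 CPM) and Spp1 (3348 and 25655 CPM) far higher in WT.

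The 12 lowest ratios to WT among genes with at least 50 CPM in either group ranged from 54 to 8.75-fold lower. Hey1, a target of Notch, stood at 1.99 CPM in members and 107.7 CPM in WT (54-fold lower, 40.6 to 73.6). Ptgs2, the inducible cyclooxygenase, stood at 2.29 and 60.2 CPM (26.3-fold lower). Cck, the peptide hormone cholecystokinin, stood at 23.5 and 463.1 CPM (19.7-fold lower). Fcgbp, a mucin-like secreted protein, stood at 124.1 and 2051 CPM (16.5-fold lower). At 2000 UMIs per cell, a Hey1 UMI was present in 0.291% of members, 15.9% of WT cells and 1.21% of WT cells with Pgr, Esr1 or Cited1 UMIs, and without thinning in 1.7, 41 and 4.63%. Ggt5, Fermt1, Apod, Itgb3, Clic6, Tspan8, Arhgef6 and Cbr2 completed the 12, from 18.3-fold lower downwards.

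Milk proteins other than the rule's caseins differed in both directions. Of 16 genes, 10 were outside the rule and passed the filter, 5 were called lower and 1 higher, and TMM made this 6 and 1. Spp1, osteopontin, stood at 3348 CPM in members and 25655 CPM in WT (7.66-fold lower). Lalba, alpha-lactalbumin of the lactose synthase complex, stood at 938.4 and 3153 CPM (3.36-fold lower). Lcn2, the iron-sequestering lipocalin, stood at 3261 and 9365 CPM, and Mfge8, a milk fat globule protein, at 1733 and 4876 CPM. Wap, whey acidic protein, was at 124.4 and 130.1 CPM over all cells, but higher in members in each class of equal casein share, for example at 72.3 and 45.5 CPM with 2 to 4% casein. Glycam1, a secreted mucin of milk, went the other way, at 555.8 and 46.7 CPM (11.9-fold higher, 11.4 to 12.5), though 5% of members (103 cells) held 85.9% of its UMIs. A Glycam1 UMI was seen in 23.8% of members and 26.1% of WT cells, and at least 5 UMIs in 238 of 2060 members and 67 of 3809 WT cells.

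Most milk fat genes lay within 2-fold. Of 15 genes of the milk fat globule and lipid uptake, 12 passed, 2 were called lower and 1 higher. Btn1a1, butyrophilin of the globule membrane, stood at 78.4 and 388.1 CPM (4.95-fold lower), and Folr1, a folate receptor, at 232.1 and 515.1 CPM. Fabp3, a fatty acid carrier, stood at 65.8 and 32.5 CPM (2.02-fold higher), and TMM took it under 2-fold. Plin2, the lipid droplet coat, stood at 2462 and 1885 CPM, within 2-fold.

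Because WT cells had a higher casein share, both libraries were also compared within classes of equal casein share. This comparison was added after the data were seen. At 2 to 4% casein, with 607 members and 895 WT cells, Spp1 stood at 2680 and 19030 CPM, Hey1 at 2.63 and 120.5 CPM, and Lalba at 720.3 and 2403 CPM. Krt14 stood at 446.9 and 38.2 CPM, Thrsp at 40.5 and 5.87 CPM, and Pclaf at 134.0 and 1.33 CPM. The same directions were thus seen within the class as in all members. Fabp3 stood at 45.2 and 10.4 CPM there, a larger ratio than in all cells. Within the class, 408 genes were called higher and 302 lower. Median depth was 10151 UMIs in members and 10810 in WT.

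The caseins themselves were not scaled alike at an equal casein share. In the class of 4 to 8%, Csn2 stood at 22588 CPM in members and 22598 CPM in WT, whereas Csn3 stood at 6694 and 11935 CPM and Csn1s2a at 13621 and 10858 CPM. In the class of 0.5 to 1%, Csn2 stood at 2931 CPM in members and 899.7 CPM in WT, and Csn3 at 1486 and 4325 CPM. The low-casein end of WT was thus led by Csn3, and that of the members by Csn2. Summed over all cells, there were 3.08 Csn2 UMIs per Csn3 UMI in members and 2.14 in WT. This mix was chosen through the caseins, and is given as a description.

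**Figure D4:**
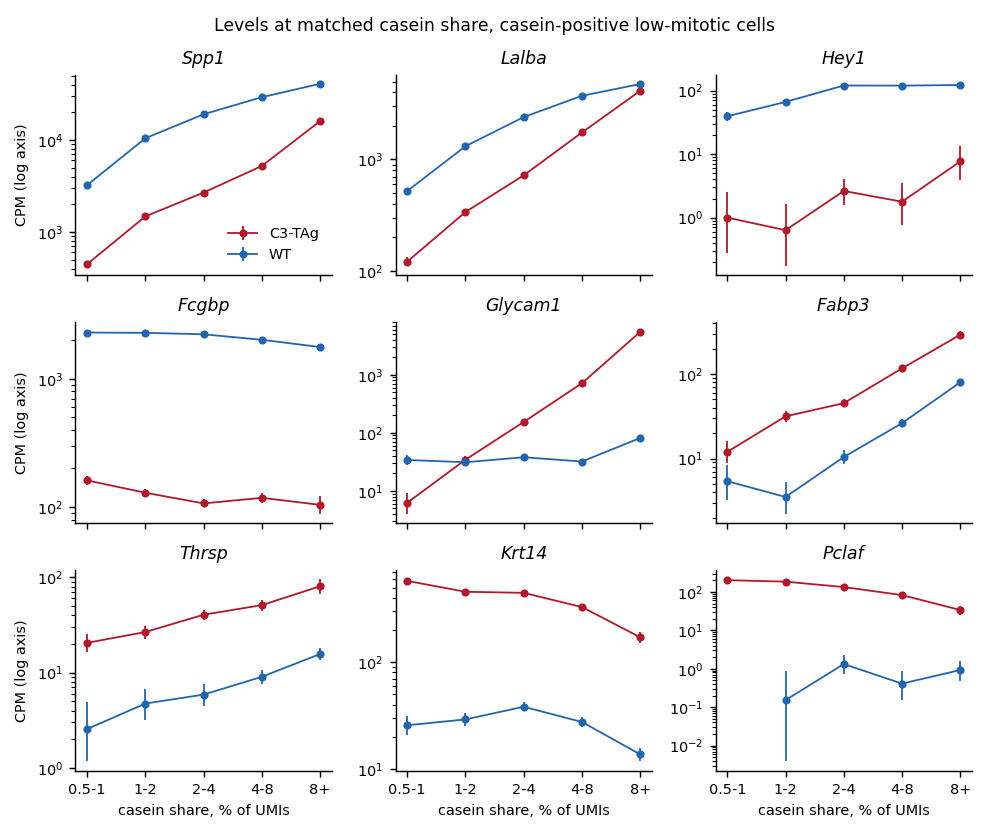
Levels in CPM (y axis, log axis) of 9 genes in 5 classes of casein share (x axis, percent of UMIs) for C3-TAg members and WT cells, with exact Poisson 95% intervals. Pclaf had no UMI in WT cells of the lowest class, which has no point. Hey1 and Spp1 lie lower and Krt14, Thrsp and Pclaf higher in members in each class. Glycam1 lies lower in members in the lowest class (6.26 and 34.1 CPM) and higher from 2% casein upwards. At 1 to 2% casein its intervals overlap (34.4 and 31.2 CPM).

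Prolactin signalling showed no gene past the limit. Of 12 genes, 9 passed and none was called under CPM scaling, while TMM called 2 lower. Prlr, the receptor, stood at 73.8 CPM in members and 90.0 CPM in WT, and Stat5a at 20.6 and 24.4 CPM. Of 20 regulators of alveolar and progenitor state, 18 passed, and Hey1 alone was called (lower) under CPM scaling, while TMM called 3 lower. Sox9, the gene in the name of the reporter, stood at 294.8 and 456.9 CPM (1.55-fold lower). Vtcn1, the B7 family ligand named in the study title as B7x, was low in both, at 10.3 and 16.7 CPM.

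Secreted signals were lower more often than higher in members. Of 24 chemokines and cytokines, 9 passed, 4 were called lower and 1 higher, and TMM made it 5 lower. Csf3, the granulocyte colony-stimulating factor, stood at 170.7 CPM in members and 704.7 CPM in WT (4.13-fold lower). Cx3cl1, a membrane-bound chemokine, was 3.93-fold lower, at 90.2 CPM in WT, and Lif stood at 22.4 and 63.5 CPM. Ccl20, the exception, stood at 20.7 and 2.32 CPM (8.91-fold higher). Among 19 matrix and mesenchymal genes, 7 passed, 3 were called lower and 1 higher under both scalings. Snai1 stood at 5.85 and 42.1 CPM, while Ctgf, a target of YAP, stood at 92.3 and 22.3 CPM.

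Of 22 p53 target genes, 13 passed, 3 were called lower and 1 higher, and TMM called 5 lower. Btg2 stood at 165.6 CPM in members and 419.2 CPM in WT, and Gadd45a at 82.5 and 198.8 CPM. Plk2 stood at 124.4 and 38.7 CPM. Cdkn1a, the inhibitor p21, stood at 71.4 and 130.6 CPM, within 2-fold by CPM. Of 13 genes of MHC class I presentation, 12 passed and 2 were called higher, B2m at 1258 and 476.7 CPM and Tap1 at 31.4 and 14.1 CPM, and TMM left 1. None of the 18 genes of the secretory pathway and protein folding was called, and TMM called 1 lower, with Hspa5, the main chaperone of the endoplasmic reticulum, at 638.6 and 935.1 CPM. Of 14 transport genes, 9 passed, 2 were called lower and 1 higher (Slc5a8, at 25.2 and 11.0 CPM), with a median log2 ratio of 0.05, and TMM left the lower ones. Slc2a1, the glucose transporter, was 4.25-fold lower at 125.5 and 533.5 CPM, and Slc28a3, a nucleoside transporter, 4.4-fold lower at 156.1 and 687.0 CPM.

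The remaining lists held few called genes. No gene of the 14 luminal keratin and junction genes that passed was called, and TMM called 1 lower. Of 15 cholesterol synthesis genes that passed, 1 was called higher, whereas TMM called none higher and 2 lower. Of 14 immediate early genes, 2 were called higher (Atf3 and Nr4a1) and 1 lower (Ier3), and TMM left the lower one. Of 14 glycolysis and hypoxia genes that passed, Vegfa was lower at 42.3 and 166.5 CPM, and TMM called 2 lower. None of 10 heat shock genes and none of 12 mitochondrially encoded genes that passed was called under either scaling. In the lists of the interleukin 10 family, MHC class II and B7 ligands only 2, 1 and 1 genes passed, and Il24 was the one called by CPM.

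**Figure D5:**
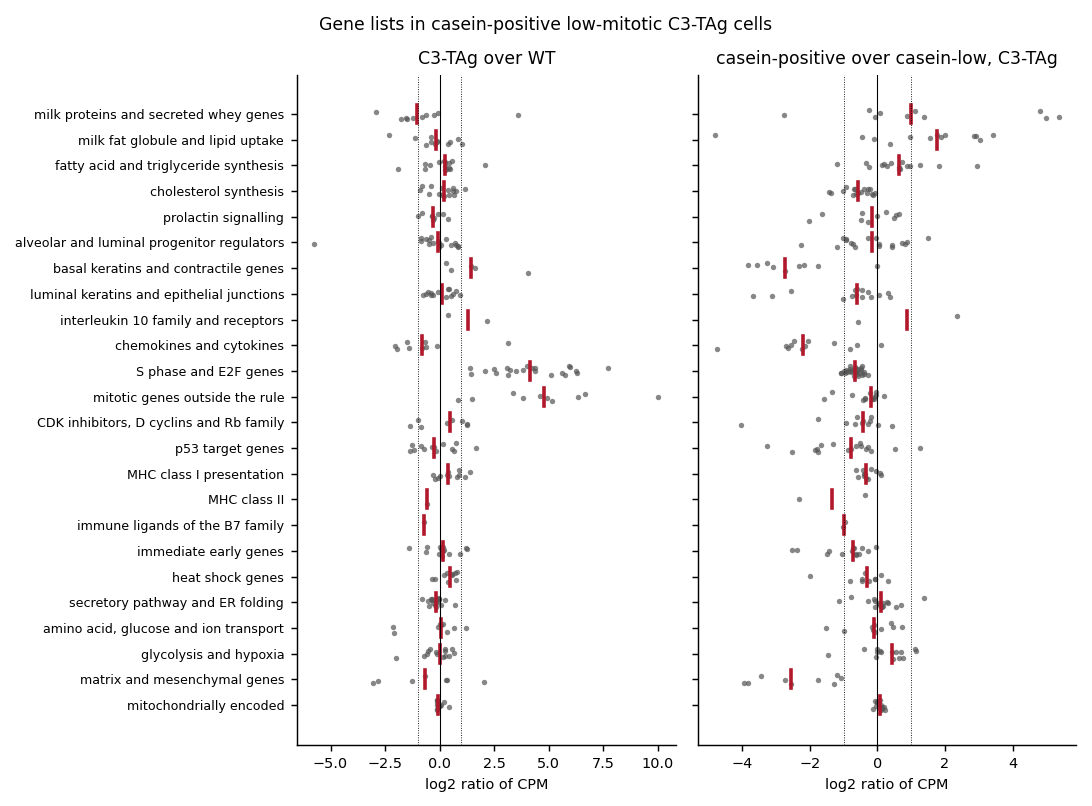
Log2 ratios of CPM (x axis) for the members of each gene list that passed the level filter (dots), with the list median (red bar) and the 2-fold limits (dotted lines), for members against WT and for members against casein-low C3-TAg cells. The S phase list lies to the right of 2-fold in the first comparison (median 4.13), and the basal (median −2.72) and matrix (median −2.57) lists lie to the left in the second.

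Within the C3-TAg library, members were next set beside the 2029 receptor-low cells with few mitotic transcripts and less casein. The contrast is that of the rule, so these values describe the members and support nothing. Of 7691 genes, 139 (1.81%) were higher in members and 491 (6.38%) lower, and TMM made it 236 and 335. Between the 3809 and 577 cells of the same classes in WT, 2.08% of genes were higher and 7.06% lower. The acute phase proteins Saa2 (280.3 and 2.33 CPM) and Saa1 (362.0 and 3.70 CPM) had the highest ratios among genes with at least 50 CPM in either group, 121-fold and 97.9-fold. Below that level, Lao1 stood at 45.6 CPM in members and had 1 UMI in casein-low cells, and Cck had 554 and 3 UMIs. Wap, Lalba and Spp1 followed, with Lalba at 938.4 and 29.6 CPM and Spp1 at 3348 and 118.0 CPM. Lrg1, Chil1, Folr1, Fabp3, Btn1a1, Lipa and Dab2 completed the 12 highest at that level, from 10.7 to 6.13-fold. Several of these genes were seen in a minority of members. A Saa2 UMI was present in 18.8%, Saa1 in 24.9%, Lao1 in 14.8%, Cck in 7.77% and Wap in 29.8%. The 103 members richest in each held 77.45% of the Saa2 and 69.3% of the Saa1 UMIs. Lalba and Spp1 were broader, with a UMI in 63 and 67.3% of members. Milk fat genes followed the caseins in number: 8 of 13 that passed were higher and 1 lower, and TMM made it 9 and 1. Between the same classes in WT, 6 of 13 were higher and 2 lower by CPM.

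Lower in members were matrix, basal and inflammatory genes. All 9 matrix and mesenchymal genes that passed were at least 2-fold lower, and 7 under TMM, with Fn1, fibronectin, at 6.74 CPM in members and 73.5 CPM in casein-low cells. Of 9 basal genes that passed, 8 were lower under both scalings, with Krt17 at 31.6 and 303.5 CPM and Lgals7 at 43.5 and 369.6 CPM. The exception was Krt14, as given above. Of 12 chemokines and cytokines, 9 were lower under both scalings, with Cxcl10 at 2.25 and 60.4 CPM. These shifts were not particular to the C3-TAg library. Between the same classes in WT, 11 of 11 basal genes that passed were lower by CPM. So were 10 of 11 chemokines and cytokines and 5 of 11 matrix genes. Cdkn2a stood at 5.01 and 83.2 CPM, and Ankrd1, a YAP target, at 7.30 and 112.4 CPM. Of 28 S phase genes that passed, 3 were lower in members by CPM and none by TMM, so that members and casein-low cells both carried S phase transcripts, summed to 1899 and 3127 CPM.

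Glycam1 showed how a few cells can set a level. It stood at 555.8 CPM in members and 666.4 CPM in casein-low cells, which would place it with the genes that did not follow casein. In casein-low cells, however, its 11175 UMIs came from 60 of 2029 cells, only 5 of which had at least 5 UMIs, and 1 cell held 5535. In members its 13102 UMIs came from 490 cells, 238 of which had at least 5 UMIs, with at most 579 in a cell.

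Members were then set beside the 567 casein-positive C3-TAg cells over the mitotic limit. Those mitotic cells were deeper, at a median of 13070 UMIs and 3568 genes per cell, against 9862 and 2819 in members. Scrublet called 7.41% of them doublets, against 4.56% of members. The mitotic contrast is the rule's own, and is again a description. Of 7554 genes, 13 (0.172%) were higher in members and 184 (2.44%) lower, and TMM made it 18 and 133. Thinning to 2000 UMIs per cell made it 50 and 302, and the part of depth was not tested. All 20 mitotic genes outside the rule passed and were lower in members under both scalings, with Hmmr at 8.44 and 71.0 CPM and Ccnb2 at 13.8 and 84.5 CPM. Among genes with at least 50 CPM in either group, replication-dependent histones had the lowest ratios, with Hist1h1b at 38.0 and 329.5 CPM and Hist1h2ap at 22.3 and 200.3 CPM. Of 28 S phase genes that passed, 8 were lower, and TMM left 6. The helicase subunits were about equal, with Mcm2 at 66.9 and 64.1 CPM and Mcm5 at 115.8 and 113.7 CPM. Pclaf stood at 143.1 and 505.3 CPM, so that it and the histones lay past 2-fold across the limit, and these helicase subunits within it.

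Of the 13 genes higher in members, 2 are on the milk protein list, 1 is on the fatty acid list and none is on the milk fat list. Saa2 stood at 280.3 CPM in members and 67.0 CPM in mitotic cells (4.19-fold), Saa1 at 362.0 and 115.6 CPM, Wap at 124.4 and 42.4 CPM, Glycam1 at 555.8 and 209.3 CPM, and Scd1 at 177.4 and 78.2 CPM. As given above, Saa1, Saa2, Wap and Glycam1 were each seen in a minority of members. The caseins themselves were 1.17 to 1.65-fold higher in members. All markers lay within 2-fold: Thrsp stood at 38.0 and 39.8 CPM, Elf5 at 253.5 and 225.1 CPM, Il24 at 38.8 and 31.3 CPM, and Krt14 at 431.2 and 529.0 CPM.

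Members differed widely among themselves. The 515 members with the highest casein share were compared with the 515 with the lowest, a contrast ordered by the rule's own caseins and given as a description. Of 7305 genes, 86 (1.18%) were higher and 279 (3.82%) lower in the high-casein cells, and TMM reversed this balance to 153 and 117. Lao1, an amino acid oxidase secreted in mouse milk, stood at 152.8 CPM in the highest and 1.08 CPM in the lowest (142-fold, 65 to 388). Glycam1 stood at 1922 and 21.9 CPM, Cck at 77.7 and 1.79 CPM, Wap at 357.2 and 17.7 CPM, and Lalba at 2356 and 163.5 CPM. Thrsp stood at 58.7 and 21.5 CPM and Elf5 at 318.8 and 199.5 CPM. High-casein members were deeper, at a median of 11234 against 8901 UMIs, and the part of depth was not tested.

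Lower in the high-casein members were Lgals3, galectin 3, at 43.2 and 326.1 CPM, Aldh1a3, a retinaldehyde dehydrogenase of luminal progenitors, at 18.7 and 114.2 CPM, and Krt7 at 50.9 and 227.3 CPM. Krt14 stood at 293.3 and 521.2 CPM, a ratio within 2-fold, and Krt17 at 11.5 and 56.5 CPM. Of 9 chemokines and cytokines that passed, 7 were lower, and TMM left 6. In WT the summed level of the 24 listed genes also fell, from 3078 CPM in the lowest to 594 CPM in the highest casein class. In members it fell from 768 to 273 CPM over those classes. Of 27 S phase genes that passed, 11 were lower, and TMM left 3, and their summed level was 1267 CPM in the high-casein and 2374 CPM in the low-casein cells. Aldh1a3 had the same order in WT: from the lowest to the highest casein class it stood at 272.5, 215.6, 120.6, 58.5 and 29.7 CPM, and in members at 127.9, 65.5, 37.3, 23.8 and 4.47 CPM.

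Even at the highest casein share, members did not reach the WT levels of several genes. In the class over 8% casein, with 127 members and 854 WT cells, Spp1 stood at 16033 and 40837 CPM, Cck at 193.0 and 866.0 CPM, Fcgbp at 104.1 and 1769 CPM, and Hey1 at 7.67 and 122.7 CPM. Lalba came close, at 4131 and 4755 CPM, and Lao1 stood at 398.0 and 543.5 CPM. Glycam1 stood at 5463 and 81.5 CPM, and Wap at 832.5 and 334.1 CPM. Krt14 stood at 171.2 and 13.7 CPM, and Pclaf at 33.9 and 0.93 CPM, so that both remained higher in members at the top of the casein range.

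The 5 markers were unevenly spread over members. A Csn2 UMI was present in 99.5% of members, an Elf5 UMI in 85%, a Krt14 UMI in 76.9%, a Thrsp UMI in 27.4% and an Il24 UMI in 8.74%. In the C3-TAg cells with Pgr, Esr1 or Cited1 UMIs, the shares of cells with an Elf5, Thrsp and Il24 UMI were 6.77, 1.42 and 0.501%. The 103 cells richest in Il24 held 89.6% of its UMIs, against 28.1% for Krt14 and 17.9% for Elf5. An Il24 UMI was detected in 180 members. In WT an Il24 UMI was present in 107 of 3809 cells (2.81%).

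Members with a marker UMI were compared with those without, at the 2-fold limit. Of 7280 genes, 15 (0.206%) were higher and 11 lower in the 1585 members with a Krt14 UMI than in the 475 without. Among genes with at least 50 CPM in either group, the lowest ratio was that of Cck, at 11.2 and 73.7 CPM (6.56-fold lower with Krt14), followed by Lao1 (28.9 and 114.1 CPM), Glycam1 (423.2 and 1099 CPM) and Wap (97.8 and 233.2 CPM). Ctgf was 2.31-fold higher, at 103.8 CPM with a Krt14 UMI. Median casein shares were 2.13 and 2.36% and median depths 10080 and 9236 UMIs, so that cells with a Krt14 UMI were also deeper. The 565 members with a Thrsp UMI, at a median of 11790 UMIs, were set beside the 1495 without, at 9370 UMIs. Their median casein shares were 2.88 and 1.96%, and 8 of 7350 genes (0.109%) were at least 2-fold higher. Glycam1 stood at 1023 and 326.8 CPM, Wap at 213.9 and 80.5 CPM, and G0s2, an inhibitor of lipolysis, at 199.9 and 97.0 CPM. Lalba (1298 and 761.9 CPM), Spp1 (4720 and 2675 CPM) and Csn2 (16889 and 11643 CPM) stayed within 2-fold. The part of depth and casein share in these splits was not tested.

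The 180 members with an Il24 UMI were compared with the 1880 without in the same way. Of 7314 genes, 27 (0.369%) were at least 2-fold higher and 10 lower. Asprv1, a retroviral-like skin protease, stood at 89.5 and 8.94 CPM (10-fold). The histones Hist1h2ap, at 62.0 and 17.5 CPM, and Hist1h1b, at 99.7 and 30.6 CPM, came next. Plaur, the urokinase receptor, stood at 395.7 and 168.6 CPM, Fosl1, a subunit of AP-1, at 199.4 and 87.9 CPM, and Cdkn1a at 141.3 and 63.0 CPM. Csf3 stood at 333.7 and 151.0 CPM and Hbegf, a ligand of the EGF receptor, at 319.5 and 147.3 CPM. Xbp1, a regulator of secretory capacity, stood at 302.3 and 598.1 CPM, the immediate early gene Fos at 188.4 and 352.7 CPM and Txnip at 168.8 and 299.7 CPM, while Csn2 was close to equal at 13964 and 13297 CPM. Median casein shares were 2.27 and 2.15%, and median depths 11230 and 9790 UMIs.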

How the data were processed

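Single-cell 3′ RNA libraries of sorted mammary luminal cells, 1 from WT and 1 from C3-TAg mice, were analysed from UMI counts per gene and barcode as deposited by the authors. Per the submitters' processing notes, these counts came from Cell Ranger 3.1.0 and mm10. The labels do not say how cell barcodes were called. Gene positions are from the GENCODE annotation of GRCm38, and 35 symbols with several of the 31053 gene rows were left out.

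The members, the 24 gene lists and the tests were chosen with earlier results of these data known. Counts were summed over the cells of a group and divided by the group's total (CPM), with exact Poisson intervals at 95% and exact conditional intervals for ratios. Shares have Clopper-Pearson intervals. With 1 library per group there is no test, and intervals and floors cover counting error only. For a gene with no UMI in a library, the ratio uses a floor of 3 counts for that library. A gene was compared at a mean of at least 10 CPM over both groups, and called at a ratio of at least 2. The 16 genes of the rule stayed out of the counts of called genes.

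Named genes were the 12 highest and 12 lowest ratios with at least 50 CPM in either group, leaving out rule, mitochondrial, ribosomal protein, immunoglobulin and unnamed genes. To these were added the 5 markers, the rule genes, and up to 3 genes at either end of each list with at least 20 CPM. Other named genes, such as Aldh1a3 over the casein classes, were chosen after their values were seen.

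Total UMIs were 23575200 in members and 48204431 in WT cells of the rule. Doublets were called with Scrublet in scanpy 1.11.5 and kept, and removed as an alternative. Tables were handled with pandas 2.3.3 and numpy 2.4.6, intervals with scipy 1.17.1 and figures with matplotlib 3.10.9, under Python 3.11.15, and edgeR 4.0.16 in R 4.3.3 gave the TMM factors only. Counts were simulated with counting error only for 6987 genes of the comparison with WT. All 4-fold and no 1.5-fold differences were called, and no unchanged gene was. The simulation held no variation between cells or libraries, so it checks the calculation only and gives no rate of false calls. Alternatives were TMM, other limits on UMIs, mitochondrial share, casein and mitotic UMIs, thinning to 2000 UMIs, other CPM filters, the mean over cells, totals without milk genes, and removal of doublets. Removal of shared barcodes, a casein share of 2 to 4% and cells without mitotic UMIs were added after the data were seen.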

Additional observations from a re-analysis of the deposited data

Results flagged for a closer look

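Muc4, a membrane mucin of secretory epithelium, differed in opposite directions between casein-positive and casein-low cells of the libraries. In C3-TAg, it stood at 184.6 CPM in members and 62.4 CPM in casein-low cells, a log2 ratio of 1.57. In WT, it stood at 133.9 CPM in casein-positive and 279.4 CPM in casein-low cells, a log2 ratio of -1.06. With 1 library per genotype the difference between these ratios was not tested. The 577 WT casein-low cells also carried Fabp4 at 214.8, Ccr7 at 104.4 and Selp at 78.2 CPM, and the part of these other cells in the WT ratio was not tested.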

How the results depend on the processing

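No paired analysis was possible because each group has 1 library, and for the same reason no library could be left out. Members were 31% of C3-TAg receptor-low cells at a mitochondrial limit of 5%, 37.6% at a casein limit of 0.25% and 27.4% at 1%, 25.6% at a mitotic limit of 5 and 40.2% at 20. In WT the casein limits of 0.25 and 1% gave 92 and 78.6%. Against WT, genes called higher and lower (479 and 256) became 293 and 440 under TMM, 100 and 115 at a mean of 50 CPM, and 1808 and 740 without a CPM filter. A mean of 5 CPM gave 749 higher, and cells with no mitotic UMI 212 higher. Against casein-low cells (139 and 491), TMM gave 236 higher, a mean of 50 CPM gave 64 and 180, and no CPM filter 473 and 1574. Against mitotic cells (13 and 184), a mean of 50 CPM gave 5 and 53, no CPM filter 173 and 471, thinning 50 and 302, a mean of 5 CPM 20 higher and a mitotic limit of 20 gave 28 higher. Between high-casein and low-casein members (86 and 279), TMM gave 153 and 117, a mean of 50 CPM 41 and 59, no CPM filter 218 and 851, thinning 158 and 544, and a mean of 5 CPM 482 lower. Of 140 such values, 103 stayed within 1.5 times or their interval and 37 did not. Of the log2 ratios of the 5 markers under these alternatives, 213 stayed within their counting interval and 97 did not. Why counts moved under TMM, thinning and the cell limits was not tested; the CPM filters change how many genes are compared. Of the 24 named genes at the ends of each comparison, none changed direction, and 9 in the mitotic comparison went under 2-fold in some setting (Glycam1, Scd1, Hmox1, Fabp3, Hilpda, Spp1, Kdm5b, Wfdc3 and Fth1). Il24 between high- and low-casein members ranged from -0.08 to 1.03 on the log2 scale.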
